A study of Homo sapiens with 23 samples.

Results

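The data described here are the 11 arrays, of 23 in the series, whose time label reads 30 min, and the comparison drawn from them is the difference between the CIGB-300 effect in HL-60 cells and the CIGB-300 effect in OCI-AML3 cells. Both are established human acute myeloid leukemia (AML) cell lines. HL-60 is a promyelocytic line that carries lesions of CDKN2A and NRAS, and OCI-AML3 is a myelomonocytic line with mutations of DNMT3A and NPM1. CIGB-300 is a synthetic peptide, fused to a cell-penetrating sequence, that binds the phosphorylation sites of protein kinase CK2 substrates and also the catalytic subunit of the kinase. The 4 groups were HL-60 cells with 40 µM CIGB-300 for 30 min (3 arrays), HL-60 cells left untreated for the same time (3 arrays), OCI-AML3 cells with 40 µM CIGB-300 for 30 min (3 arrays) and untreated OCI-AML3 cells (2 arrays, replicates 2 and 3, since the authors removed replicate 1). The controls received no peptide at all, no group received an inactive peptide, and each line stands for 1 leukemia, so line and patient origin cannot be told apart. The RNA of each sample was hybridised to a Clariom S HT array, which gives 1 value on the log2 scale for each probe set.

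Cells that meet a stimulus switch on, within minutes and without new protein synthesis, a set of immediate early genes. Among them are transcription factors of the EGR, NR4A and AP-1 families, and later come the cytokines and chemokines that such factors and NF-kB drive. NF-kB is held in the cytoplasm by IkB proteins, and it induces the genes of several of its own inhibitors, so that the level of an IkB transcript is often read as a trace of NF-kB activity. In myeloid cells the same program provides chemokines that attract monocytes and neutrophils.

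The question was whether the early response to the peptide differed between the lines. Of 21448 probe sets tested, 299 (1.39%) had a difference of effects of at least 1.5-fold at an unadjusted p under 0.01 from limma, the threshold called here. The effect was more positive in HL-60 for 165 of them (0.769%) and more positive in OCI-AML3 for 134 (0.625%). An adjusted p under 0.05 was kept by 16 (0.0746%), 12 (0.0559%) and 4 (0.0186%) in these directions, and 13 of the 16 carry a single gene symbol. The 13 genes were NR4A3, GPR18, CD69, CCL3L3, CCL2, CLDN6, NFKBIA, TNFSF14, NFKBID and ZNF217, with the more positive effect in HL-60, and IL1B, ADAMTS1 and OSM, with the more positive effect in OCI-AML3. In the 11 fits that each left out 1 array all 13 stayed called, but the adjusted p rose past 0.05 in at least 1 fit for 8 of them, most often for IL1B (7 fits), NFKBIA (4) and OSM (3), and it stayed under 0.05 for NR4A3, GPR18, CCL2, NFKBID and ADAMTS1. An unadjusted p under 0.01 alone was reached by 379 probe sets (1.77%) where 214 would be reached with no effect at all, so many of the 299 have no firm support one by one. Within the lines, 188 probe sets (0.877%) were called in HL-60, where 121 rose (0.564%) and 67 fell (0.312%), and 230 (1.07%) in OCI-AML3, where 131 rose (0.611%) and 99 fell (0.462%).

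**Figure D1:**
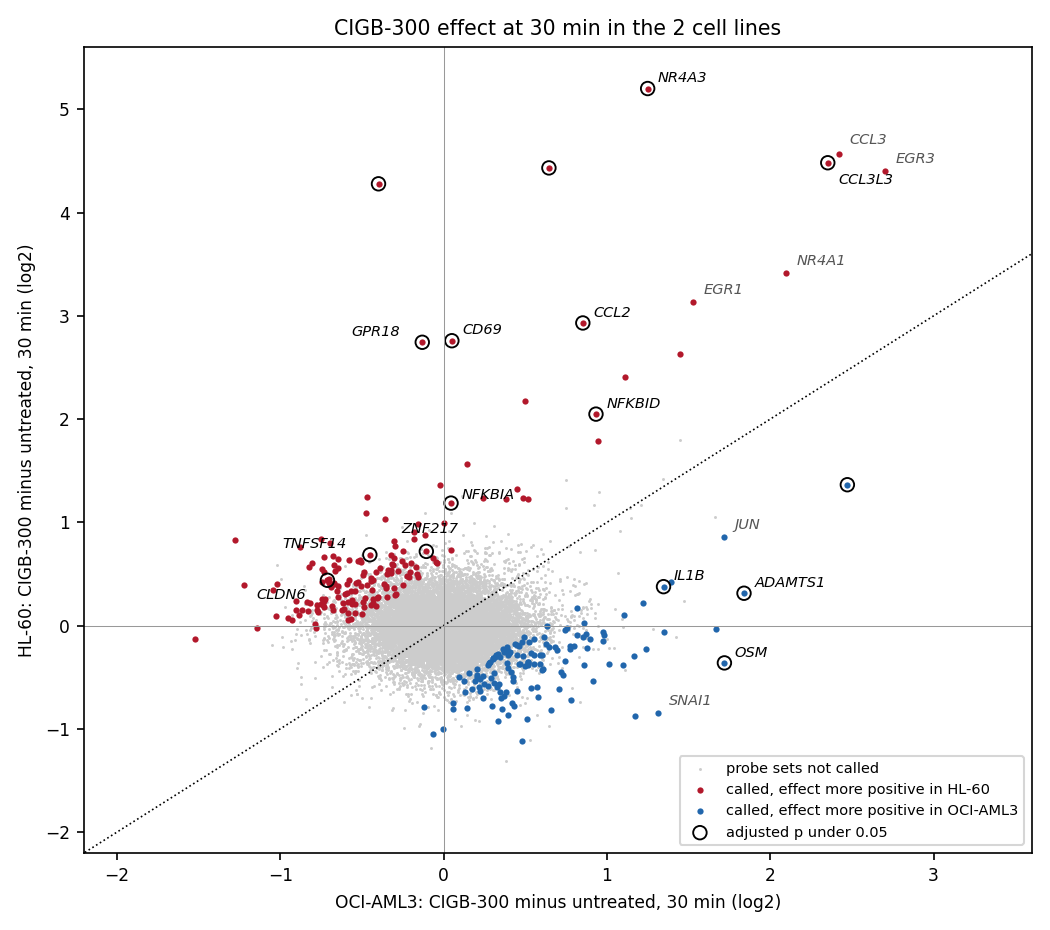
Each point is 1 probe set, with the CIGB-300 effect at 30 min in OCI-AML3 on the horizontal axis and in HL-60 on the vertical axis, both in log2 units, and the dotted line marks equal effects. The 165 red and 134 blue points were called for the difference, and the 16 circled points had an adjusted p under 0.05; NR4A3 lies highest, at 5.20 in HL-60 and 1.25 in OCI-AML3.

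Promoter sequences from RefSeq (GRCh38.p14, 250 bases before to 50 bases after each start) were on hand for 9 of the 13 genes, in 12 entries. They were searched on both strands for the kappaB motif, the cAMP response element (TGACGTCA), the AP-1 site (TGANTCA), the CArG box, the EGR site (GCGNGGGCG) and the NR4A site NBRE (AAAGGTCA), which are found in 11.3%, 1.85%, 7.71%, 1.29%, 9.43% and 1.22% of 35116 promoters of that length. The kappaB motif was present in 7 of the 12 entries, of the 5 genes CLDN6, NFKBIA, TNFSF14, NFKBID and ZNF217. The 2 entries of TNFSF14 overlap almost wholly and hold the same matches, so the entries are not independent. Of the 3 entries of NFKBID, 1 had no match. An excess over the share in all promoters was not tested. None of the motifs was found in the entries of NR4A3, GPR18, CCL3L3 and IL1B. Shown here are 3 promoters with a kappaB match, of the NF-kB inhibitors NFKBIA and NFKBID and of the TNF superfamily ligand TNFSF14, because these genes belong to NF-kB feedback or to the cytokines that go with it. All 3 lie on the minus strand and are written 5′ to 3′ along the gene, with the matches in capitals.
NFKBIA, chr14:35404700-35404999: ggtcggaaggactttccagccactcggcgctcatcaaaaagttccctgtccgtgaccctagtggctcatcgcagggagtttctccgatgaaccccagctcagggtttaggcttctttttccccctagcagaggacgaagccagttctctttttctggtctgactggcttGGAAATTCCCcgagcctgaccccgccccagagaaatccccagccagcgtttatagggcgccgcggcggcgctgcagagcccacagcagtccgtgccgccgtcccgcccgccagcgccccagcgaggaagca
NFKBID, chr19:35899694-35899993: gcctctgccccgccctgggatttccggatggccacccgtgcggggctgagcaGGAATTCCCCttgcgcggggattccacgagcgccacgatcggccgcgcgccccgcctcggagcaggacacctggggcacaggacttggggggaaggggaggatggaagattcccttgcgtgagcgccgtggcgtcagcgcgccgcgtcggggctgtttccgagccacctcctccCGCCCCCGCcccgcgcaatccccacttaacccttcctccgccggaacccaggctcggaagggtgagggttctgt
TNFSF14, chr19:6670111-6670410: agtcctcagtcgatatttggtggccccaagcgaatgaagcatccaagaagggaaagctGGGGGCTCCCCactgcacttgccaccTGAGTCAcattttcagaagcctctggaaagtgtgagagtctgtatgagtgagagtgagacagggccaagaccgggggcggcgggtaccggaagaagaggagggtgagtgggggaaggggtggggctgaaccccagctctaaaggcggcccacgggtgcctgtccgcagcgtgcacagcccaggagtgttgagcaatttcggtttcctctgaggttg
The capitals are the kappaB match in NFKBIA, the kappaB match and then the EGR site in NFKBID, and a pair of overlapping kappaB matches followed by an AP-1 site in TNFSF14. The matches in NFKBIA and NFKBID fit the searched motifs on the other strand. A match in these letters is a description of the promoter and not evidence that a factor was bound.

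The largest difference with a gene name was that of NR4A3, an orphan nuclear receptor that acts as an immediate early transcription factor. Its values in untreated HL-60 cells were 3.22, 3.25 and 2.89, and with CIGB-300 they were 8.50, 8.35 and 8.13. In OCI-AML3 cells they were 3.82 and 3.38 without and 5.38, 4.87 and 4.30 with the peptide. The untreated arrays of both lines were thus low, and the treated arrays were higher in both lines and did not overlap between them. NR4A3 rose in HL-60 by a log2 fold change of 5.20 ± 0.32 (SE) and in OCI-AML3 by 1.25 ± 0.36, a difference of 3.95 ± 0.48 with a 95% interval of 2.95 to 4.96 and an adjusted p of 0.000498 from limma. The other members of the family rose in both lines too. NR4A1 started lower in HL-60, at 5.42, 5.04 and 5.75 against 7.95 and 8.12, and reached 8.99, 8.73 and 8.72 against 10.11, 10.17 and 10.10. Its difference was called at 1.32 ± 0.25, adjusted p = 0.0666 from limma, so that the lower line rose more but stayed lower. NR4A2 rose by 1.80 in HL-60 and by 1.45 in OCI-AML3, and its difference of 0.35, with a 95% interval of -0.43 to 1.13, was not called.

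EGR1 and EGR3 rose in both lines, and more so in HL-60. EGR1, a zinc finger factor of the immediate early response and of monocytic differentiation, was at 8.73, 9.06 and 8.94 in untreated HL-60 cells and at 10.76 and 10.88 in untreated OCI-AML3 cells. With the peptide it was at 12.04, 12.10 and 11.99 and at 12.40, 12.36 and 12.29. The lines, well apart before, were therefore nearly level when treated, with a gap of -0.31 and a 95% interval of -0.77 to 0.16. EGR3 followed, with untreated means of 6.89 and 9.01 and treated means of 11.29 and 11.72. The differences of effects were 1.60 ± 0.33 for EGR1 and 1.70 ± 0.35 for EGR3, both called, with adjusted p of 0.104 and 0.101 from limma. Of 5 measured genes in the list of EGR factors and their NAB corepressors, these 2 were called for the difference and 3 were not. Among the 3 was EGR4, which rose by 0.82 and by 0.65. The list median was 0.17 against -0.01 over all probe sets. Here and for the lists below, the share called over all probe sets was 1.39%. The lists were drawn up with results of these data known, so their counts are not read as an enrichment.

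Among the AP-1 subunits the direction was not shared. JUN, at 8.95, 8.99 and 8.75 in untreated HL-60 and 6.68 and 7.01 in untreated OCI-AML3 cells, reached 9.84, 9.69 and 9.74 and 8.57, 8.65 and 8.47. It rose in both lines, by 0.86 and by 1.72, and its difference of -0.86 ± 0.22 (adjusted p = 0.263 from limma) was the single call among 13 measured AP-1 and small MAF genes. That call was lost without untreated OCI-AML3 replicate 2, at -0.70. FOS, FOSB and JUNB, the partners of JUN in AP-1, rose in both lines, and none was called for the difference, with values of 0.66, -0.11 and 0.26 and 95% intervals of 0.04 to 1.27, -0.75 to 0.53 and -0.21 to 0.72. DUSP1, a phosphatase that switches off MAP kinases, rose in OCI-AML3 by 1.10 from a mean of 4.62, and in HL-60 its means were 2.64 and 2.75, the level of the background features of the array. Its difference of -0.996 ± 0.30 lost the call in 6 of the fits that left out 1 array.

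**Figure D2:**
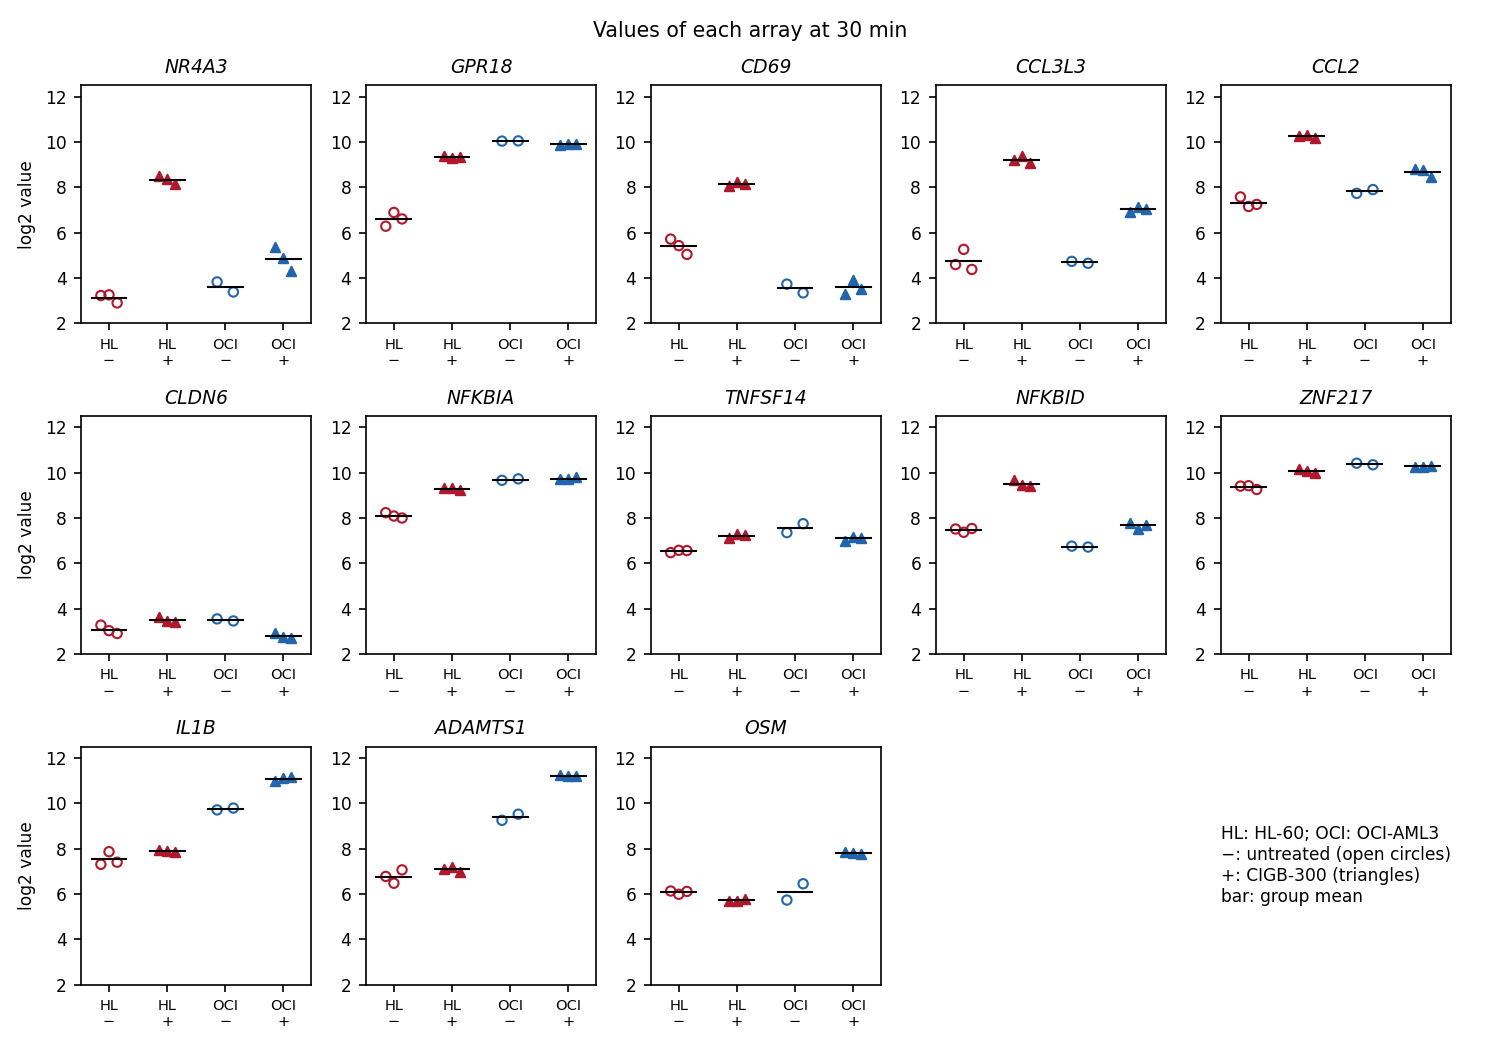
Log2 values of every array at 30 min for the 13 genes with an adjusted p under 0.05, by group; open circles are untreated and triangles are treated arrays, red is HL-60 and blue is OCI-AML3, and the bar is the group mean. Treated and untreated HL-60 arrays did not overlap in 12 of the genes (all but ADAMTS1, and with hardly any margin in IL1B), and treated and untreated OCI-AML3 arrays did not overlap in 11 (all but CD69 and NFKBIA); of all probe sets 12.4% in HL-60 and 24.1% in OCI-AML3 do not overlap.

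The chemokine transcripts CCL2, CCL3, CCL3L3 and CXCL8 rose in both lines, and each had a called difference toward a larger rise in HL-60. CCL2, which attracts monocytes, was at 7.57, 7.15 and 7.24 in untreated HL-60 cells and at 10.26, 10.32 and 10.19 with CIGB-300. In OCI-AML3 cells it was at 7.73 and 7.90 without and at 8.81, 8.75 and 8.44 with the peptide. All treated arrays were above all untreated ones in each line, and the treated HL-60 arrays were above every other array. CCL2 rose by 2.93 ± 0.14 and by 0.85 ± 0.16, a difference of 2.08 ± 0.22, adjusted p = 8.14e-05 from limma. CCL3L3, a near copy of the macrophage chemokine gene CCL3, was at 4.59, 5.26 and 4.37 in untreated and 9.19, 9.40 and 9.08 in treated HL-60 cells, and at 4.73 and 4.64 in untreated and 6.92, 7.15 and 7.04 in treated OCI-AML3 cells. The untreated lines overlapped and the treated lines did not, and the difference was 2.13 ± 0.33, adjusted p = 0.00956 from limma. CCL3 itself rose by 4.57 and by 2.42, with a difference of 2.15 ± 0.43, adjusted p = 0.093; signal of these near-identical copies cannot be told apart with certainty on an array. These 3 were the calls among 20 measured CC chemokines, where the list median was 0.26. Of 19 measured CXC and other chemokines 2 were called, CXCL8, which attracts neutrophils and rose by 1.79 and by 0.94, and PPBP, a platelet chemokine near the dim end of the array. The call of CXCL8 (difference 0.85 ± 0.28) was lost in 10 of the fits that left out 1 array, and that of PPBP (1.39 ± 0.47) in 8. PPBP had 0.57 in HL-60 and -0.83 in OCI-AML3, neither called.

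Cell surface receptors followed. GPR18, a G protein-coupled receptor of leukocytes that binds lipid mediators, was at 6.28, 6.89 and 6.60 in untreated and 9.39, 9.29 and 9.33 in treated HL-60 cells. In OCI-AML3 cells it was at 10.04 and 10.05 and at 9.88, 9.92 and 9.93. It was thus high in OCI-AML3 with or without the peptide, and HL-60 cells came up to just under that level. The difference was 2.88 ± 0.17 with a 95% interval of 2.52 to 3.23, adjusted p = 1.57e-08 from limma. CD69, the early activation antigen of leukocytes, was at 5.71, 5.42 and 5.04 in untreated and 8.06, 8.23 and 8.16 in treated HL-60 cells, against 3.73 and 3.34 and then 3.30, 3.92 and 3.52 in OCI-AML3. It rose in HL-60 by 2.76 ± 0.28, while the OCI-AML3 arrays overlapped at a low level (0.05 ± 0.31), and the difference was 2.71 ± 0.41, adjusted p = 0.00777 from limma. Defining T cell genes, which often go with CD69, were low in all groups, with means of 4 measured genes from 2.51 to 5.62. Of these CD3E rose in HL-60 by 0.73, and the mean of the 4 genes was 3.52 to 3.67 in untreated and 3.70 to 4.02 in treated HL-60 arrays; its part in the result was not tested. PTGER4, the prostaglandin E2 receptor EP4, rose in HL-60 by 1.22 and had 0.38 in OCI-AML3, with a called difference of 0.84 ± 0.17, and F3, tissue factor, rose by 1.23 and had 0.24, with a difference of 0.99 ± 0.29. Without untreated OCI-AML3 replicate 3 the difference of F3 was 0.95 and no longer called.

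Of the inhibitors and feedback genes of NF-kB, NFKBIA, NFKBID and TNFAIP3 had the more positive effect in HL-60, as the called chemokines did, and NFKBIZ had it in OCI-AML3. NFKBIA, the gene of IkB alpha, was at 8.23, 8.09 and 8.0 in untreated and 9.34, 9.32 and 9.22 in treated HL-60 cells. In OCI-AML3 cells it was at 9.66 and 9.73 and at 9.73, 9.70 and 9.79, where the arrays overlapped. It rose in HL-60 by 1.19 ± 0.13 and had 0.04 ± 0.14 in OCI-AML3, a difference of 1.14 ± 0.19, adjusted p = 0.0151 from limma. NFKBID, a nuclear IkB protein, was at 7.51, 7.37 and 7.54 in untreated and 9.70, 9.47 and 9.40 in treated HL-60 cells, and at 6.76 and 6.72 in untreated and 7.77, 7.54 and 7.71 in treated OCI-AML3 cells. It rose in both lines, by 2.05 and by 0.93, and the difference was 1.11 ± 0.16, adjusted p = 0.00547 from limma. Of 18 measured genes of the NF-kB list 4 were called with the more positive effect in HL-60 and 1 with the more positive effect in OCI-AML3, at a list median of 0.08. The other 2 of the 4 were TNFAIP3, the ubiquitin-editing inhibitor A20, at 0.85 ± 0.19, and MAP3K8, a kinase upstream of ERK, at 1.40 ± 0.39. The call in the other direction was NFKBIZ, a nuclear IkB protein that serves as a coactivator, which rose in OCI-AML3 by 0.82 and had 0.17 in HL-60, with a difference of -0.65 ± 0.18 (adjusted p = 0.321 from limma), close to the limit of 1.5-fold; it was named after its values were seen. The call of MAP3K8 was lost without untreated OCI-AML3 replicate 3, at 1.33. The subunit genes NFKB1, NFKB2, REL, RELA and RELB were not called, with differences of -0.15, 0.26, 0.07, 0.44 and -0.02. GADD45B, a stress sensor induced by NF-kB, rose by 1.23 and had 0.52 in OCI-AML3, with a difference of 0.71 ± 0.15 that was 0.56, under the fold limit, without untreated OCI-AML3 replicate 3.

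**Figure D3:**
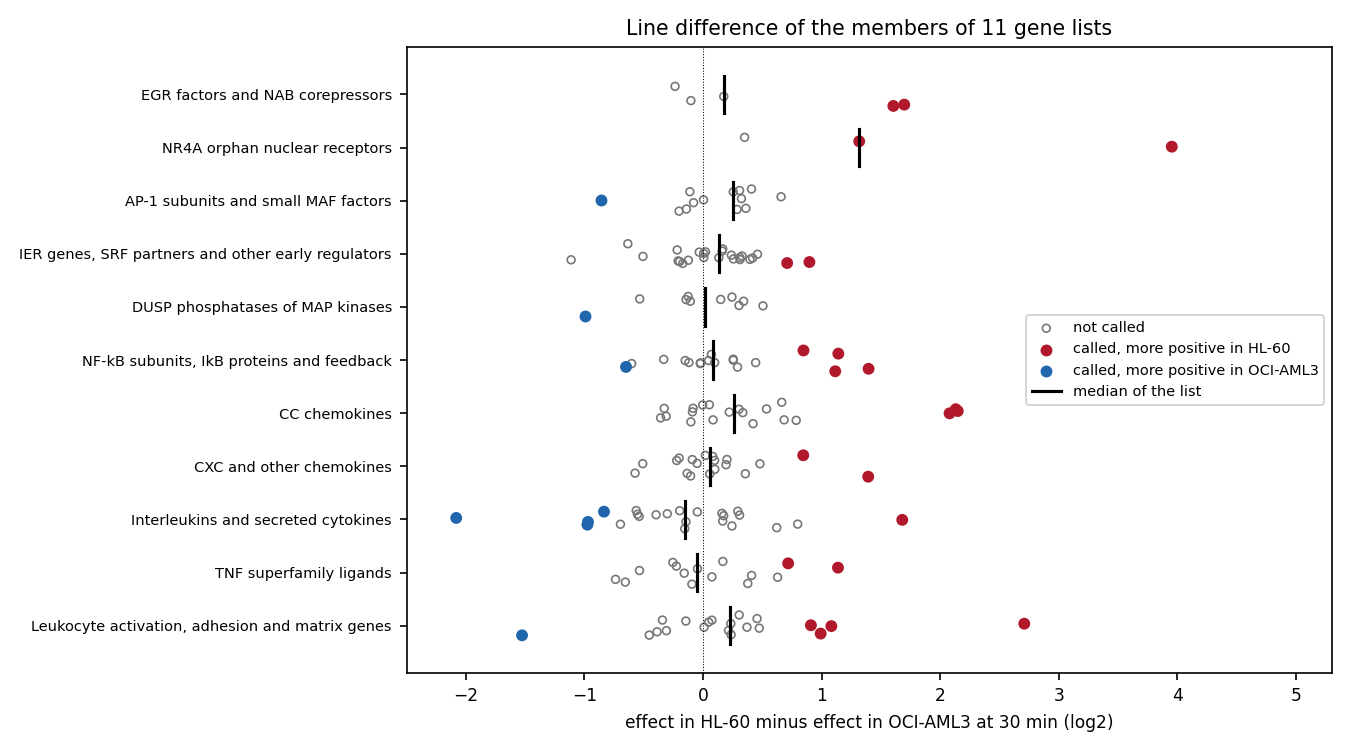
Line difference of the CIGB-300 effect (HL-60 minus OCI-AML3) after 30 min, in log2 units, for the measured members of 11 gene lists; filled points were called (red, more positive in HL-60; blue, more positive in OCI-AML3), open points were not, and the vertical bar is the list median. The NR4A median is 1.32, and the medians of the other 10 lists lie between -0.15 and 0.26.

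Of 23 measured interleukins and secreted cytokines, 4 were called with the more positive effect in OCI-AML3 and 1 with the more positive effect in HL-60. Over all probe sets, 0.625% and 0.769% were called in these directions. OSM, oncostatin M, a cytokine of the IL-6 family made by myeloid cells, was at 6.13, 5.99 and 6.11 in untreated and 5.68, 5.69 and 5.77 in treated HL-60 cells. In OCI-AML3 cells it was at 5.73 and 6.45 and at 7.87, 7.80 and 7.77, so that treated OCI-AML3 arrays were above all others. It rose in OCI-AML3 by 1.72 ± 0.26 and had -0.36 ± 0.23 in HL-60, a difference of -2.08 ± 0.35, adjusted p = 0.0155 from limma. IL1B, interleukin-1 beta, was at 7.31, 7.87 and 7.40 in untreated and 7.93, 7.91 and 7.87 in treated HL-60 cells, and at 9.71 and 9.79 in untreated and 10.98, 11.14 and 11.17 in treated OCI-AML3 cells. The line with more transcript at the start was the one in which it rose more, by 1.35 ± 0.13. In HL-60 it had 0.38 ± 0.12, under 1.5-fold and not called. The difference was -0.97 ± 0.18, adjusted p = 0.0444 from limma. The call held under all 20 alternatives, but the adjusted p rose past 0.05 in 11 of them, up to 0.304, among them the fit of the 11 arrays of 30 min alone. LIF, leukemia inhibitory factor, also of the IL-6 family, rose in OCI-AML3 by 1.39 and had 0.42 in HL-60, with a difference of -0.97 ± 0.27 that lost the call without untreated OCI-AML3 replicate 3, at -0.78. IL10, an anti-inflammatory cytokine, was the last of the 4, at -0.83 ± 0.23 (adjusted p = 0.335 from limma). It was named after its values were seen. It was at 2.19 to 2.60 in the HL-60 arrays. In OCI-AML3 it was at 2.76 and 3.01 in untreated and 3.64, 4.125 and 3.46 in treated cells. All but the treated OCI-AML3 values are near the median of the background features (2.67), so the size of this difference is uncertain. The single call in the other direction was IL1RN, the interleukin-1 receptor antagonist. It rose in HL-60 by 2.18, from 2.08, 3.15 and 3.23 to 4.81, 5.38 and 4.82, and was at 9.38 and 9.20 and then 9.80, 9.87 and 9.70 in OCI-AML3, with a difference of 1.68 ± 0.36, adjusted p = 0.12. The untreated HL-60 mean of 2.82 is near the median of the background features (2.67), so the size of this rise is uncertain. IL1B and IL1RN were both more abundant in OCI-AML3 than in HL-60 in every array. The list median was -0.15.

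ADAMTS1, a secreted protease of the extracellular matrix, was at 6.78, 6.47 and 7.07 in untreated and 7.09, 7.18 and 6.98 in treated HL-60 cells, which overlapped. In OCI-AML3 cells it was at 9.26 and 9.52 and at 11.24, 11.23 and 11.22, and it rose by 1.84 ± 0.13. The difference was -1.53 ± 0.18, adjusted p = 0.000426 from limma, the smallest of those with the more positive effect in OCI-AML3. TNFSF14, the TNF superfamily ligand LIGHT, rose in HL-60 by 0.69 ± 0.12, from 6.47, 6.57 and 6.56 to 7.13, 7.28 and 7.26. In OCI-AML3 it was at 7.35 and 7.75 without and 7.00, 7.16 and 7.13 with the peptide, a change of -0.45 ± 0.13 that is under 1.5-fold. The effects were of opposite sign, the difference was 1.14 ± 0.18, adjusted p = 0.00959 from limma, and the treated lines overlapped. TNFSF10, the death ligand TRAIL, was called as well, at 0.72 ± 0.19, and these were the calls among 15 measured TNF superfamily ligands. Of these ligands only TNFSF14 had a called rise in HL-60, and none had one in OCI-AML3. The paper reports that TNF itself rose in both lines, so TNF appears not to be among the measured genes of this list. A line difference of TNF was not assessed by name, and the counts of this list do not speak to it. ZNF217, a zinc finger repressor, rose in HL-60 by 0.72 ± 0.08, from 9.41, 9.43 and 9.26 to 10.17, 10.09 and 9.99, and was at 10.42 and 10.35 and then 10.27, 10.27 and 10.30 in OCI-AML3. Its difference was 0.82 ± 0.12, adjusted p = 0.00746 from limma. CLDN6, an epithelial tight junction gene, had values of only 2.69 to 3.62 in all 11 arrays, where the median over 23 background features of the array was 2.67, so its difference of 1.15 ± 0.18 (adjusted p = 0.00959 from limma) lies in the dimmest range. The effects of CLDN6 were 0.44 in HL-60, not called, and -0.71 in OCI-AML3, called.

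Of the 3 probe sets without a symbol at an adjusted p under 0.05, TC1700007626.hg.1 was at 6.41, 6.07 and 5.61 in untreated and 10.33, 10.41 and 10.19 in treated HL-60 cells, and at 4.55 and 4.22 and then 4.06, 4.11 and 3.79 in OCI-AML3. Its difference of 4.68 ± 0.28 (adjusted p = 1.57e-08 from limma) was the largest of all, in a transcript that the annotation used here leaves unnamed. TC1700007620.hg.1 had a difference of 3.79 ± 0.35 and TC0100011253.hg.1 one of -1.11 ± 0.17, the latter in a transcript that rose in both lines, by 1.36 and by 2.47.

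Among other called genes, PMAIP1, the pro-apoptotic BCL2 family member NOXA, rose in both lines, by 2.41 and by 1.11, with a difference of 1.30 ± 0.28, and it was the call among 14 measured BCL2 family genes. ARRDC3, an arrestin-related adaptor, rose in HL-60 by 1.24 and had -0.47 in OCI-AML3, with a difference of 1.71 ± 0.47 that was not called without untreated OCI-AML3 replicate 2, at 1.52. BHLHE41, a circadian repressor, rose in HL-60 by 0.80 and had -0.70 in OCI-AML3, with a difference of 1.49 ± 0.38. CD86, PLK3, ACKR3 and KLF6 were further called list members, at 1.08 ± 0.35, 0.90 ± 0.27, 0.83 ± 0.28 and 0.63 ± 0.16. Among other losses, CD86 and PLK3 were not called without treated HL-60 replicate 1, at 0.93 and 0.715. ACKR3 and KLF6 were not called without treated HL-60 replicate 2, at 0.65 and 0.55. SNAI1, a repressor known for epithelial to mesenchymal transition, was at 9.22 and 9.21 in untreated and 10.61, 10.51 and 10.48 in treated OCI-AML3 cells, and rose by 1.31 ± 0.42. In HL-60 it was at 5.35, 5.11 and 4.73 and then 4.15, 4.47 and 4.01, an effect of -0.85 that was not called, and the difference was -2.17 ± 0.57, adjusted p = 0.284 from limma. PRSS12, C5orf34, C3orf62, SLC9A9, MSC, HERC5, ALKAL1 and ALG6 were further calls in this direction, at -1.48 to -1.32, and OR7D4 in the other direction, at 1.59; their adjusted p values were 0.104 to 0.496. The calls of HERC5, SLC9A9, ALG6, ALKAL1 and MSC were lost in 3, 4, 6, 7 and 7 of the fits that left out 1 array, at -1.56 to -1.12. Without untreated OCI-AML3 replicate 3 the difference of C3orf62 went from -1.46 to -0.89 and was no longer called. ADM, adrenomedullin, a target of hypoxia, fell in HL-60 by 1.00 and had -0.01 in OCI-AML3, and the call of its difference was lost in 6 of the fits that left out 1 array, at -0.94 to -0.81.

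The lines differed before treatment, so the same difference of effects can mean that treated cells drew apart or drew together. The gap between the lines in untreated and in treated arrays, fitted after the values had been seen, showed both. In 9 of the 13 genes the lines were farther apart when treated. NR4A3, CCL3L3 and OSM had untreated gaps whose 95% intervals included 0 and treated gaps of 3.48, 2.18 and -2.10. In the other 4 genes, GPR18, NFKBIA, TNFSF14 and ZNF217, untreated HL-60 cells had less transcript than untreated OCI-AML3 cells, by log2 gaps of -3.45, -1.59, -1.02 and -1.02, and the treated gaps were -0.58, -0.45, 0.12 and -0.20. Of the 165 called probe sets with the more positive effect in HL-60, 75 were nearer between the lines when treated, and of the 134 in the other direction 76 were.

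**Figure D4:**
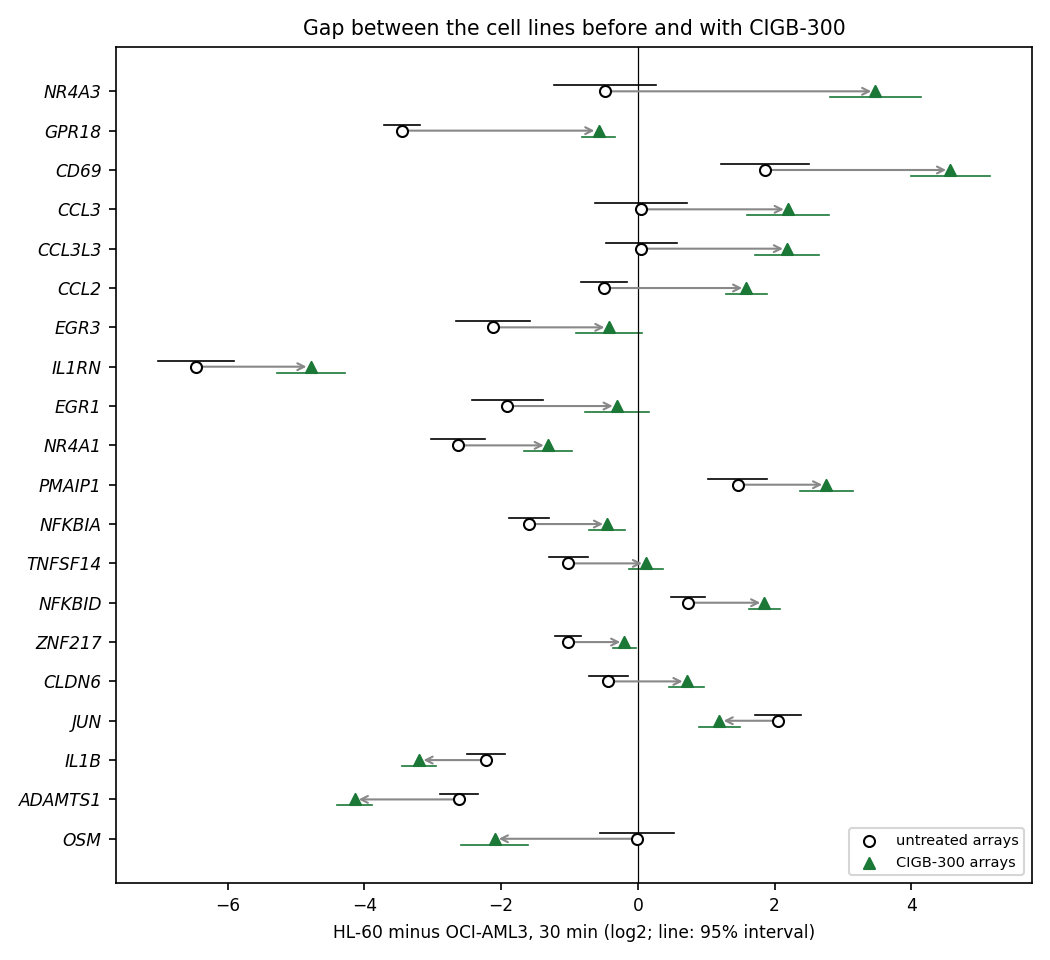
HL-60 minus OCI-AML3 at 30 min, in log2 units, in untreated arrays (open circles) and in arrays with CIGB-300 (triangles), for the 13 genes with an adjusted p under 0.05 and 7 other called genes; thin lines are 95% intervals, and the arrow runs from untreated to treated. GPR18 moves from -3.45 to -0.58 and EGR1 from -1.91 to -0.31, while NR4A3 moves from -0.48 to 3.48.

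The 299 called probe sets were made up of effects of several kinds. In 41 the transcript rose in HL-60 with no call in OCI-AML3, in 39 it rose in OCI-AML3 with no call in HL-60, and in 24 and 41 it fell in HL-60 or in OCI-AML3 alone. Another 14 rose in both lines by unequal amounts, 1 fell in HL-60 and rose in OCI-AML3, and 139 were called in neither line. Opposite signs of the fitted effects were found in 138 of 165 and in 122 of 134. In 277 of the 299 the treated arrays did not overlap the untreated ones in the line with the larger effect, where 12.4% of all probe sets do not overlap in HL-60 and 24.1% in OCI-AML3, whose control has 2 arrays. The call itself selects for this. A mean level under the median of all probe sets (5.50) was found for 173 of the 299, and for 4 of the 16 with an adjusted p under 0.05.

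A shared response was seen beside these differences. In both lines 28 probe sets rose and none fell, and for 14 of the 28 the difference was called, 12 with the larger rise in HL-60 and 2 with the larger rise in OCI-AML3. ZFP36, which destabilises cytokine transcripts, rose from 8.51, 8.39 and 8.58 to 9.57, 9.78 and 9.63 in HL-60 and from 10.40 and 10.47 to 11.70, 11.62 and 11.61 in OCI-AML3. Its difference was -0.04, with a 95% interval of -0.35 to 0.26, so that a difference of 1.5-fold lies outside the interval. IER3, an early response gene, and HBEGF, a growth factor of the EGF family, had differences of 0.01 (-0.57 to 0.58) and 0.08 (-0.56 to 0.72). DUSP2, RGS2 and C3AR1, a phosphatase of MAP kinases, a regulator of G protein signaling and the receptor of complement C3a, had differences of 0.34, -0.17 and -0.61, with intervals from -0.10 to 0.79, from -0.71 to 0.37 and from -1.36 to 0.14. These intervals are wide, and a missed call does not show that the lines acted alike.

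Over all 36 pathway lists, 472 genes were measured, and 28 were called with the more positive effect in HL-60 and 9 with the more positive effect in OCI-AML3, together 7.84% where 1.39% of all probe sets were called. The lists were drawn up with results of these data known, so this share is not read as an enrichment. In 17 lists with 187 measured genes no member was called. Among these were heat shock proteins, the ATF4 stress response, NRF2 targets, cholesterol synthesis, interferon-stimulated genes, ribosome biogenesis, the cell cycle, MYC and its partners, and the CK2 subunits with nucleophosmin. For the last group the differences of the 6 measured genes ran from -0.40 to 0.29, with -0.04 for CSNK2A1 and -0.14 for CSNK2A2, the catalytic subunits of CK2.

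The 12 arrays of 3 h gave the same measure in other samples. Their values do not enter the differences at 30 min, but they share in the variance estimate behind the p values. With the 11 arrays of 30 min alone, 320 probe sets were called, 221 of them among the 299, and of the 16 with an adjusted p under 0.05, 10 kept it. The difference between the lines had the same sign at 3 h in all 13 named genes, was called in 9 and had an adjusted p under 0.05 in 8. It was 4.92 for CD69, 4.74 for CCL3L3, 4.34 for CCL2, 3.25 for GPR18, 2.20 for NFKBIA, 1.76 for NFKBID and -1.78 for ADAMTS1, all called. For NR4A3 it was 1.76 (adjusted p = 0.0687 from limma) and for OSM -1.21 (adjusted p = 0.0896), while CLDN6, TNFSF14 and IL1B had 0.18, 0.36 and -0.21 and were not called. The unnamed TC0100011253.hg.1 was reversed, from -1.11 to 1.70. Of the 165 probe sets with the more positive effect in HL-60 at 30 min, 105 had the same sign at 3 h and 27 were called the same way, and of the 134 in the other direction 78 and 10. At 3 h 639 probe sets (2.98%) were called in all. For untreated OCI-AML3 cells of this time point the sample titles say 30 h but the label gives 3 h, which was followed.

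**Figure D5:**
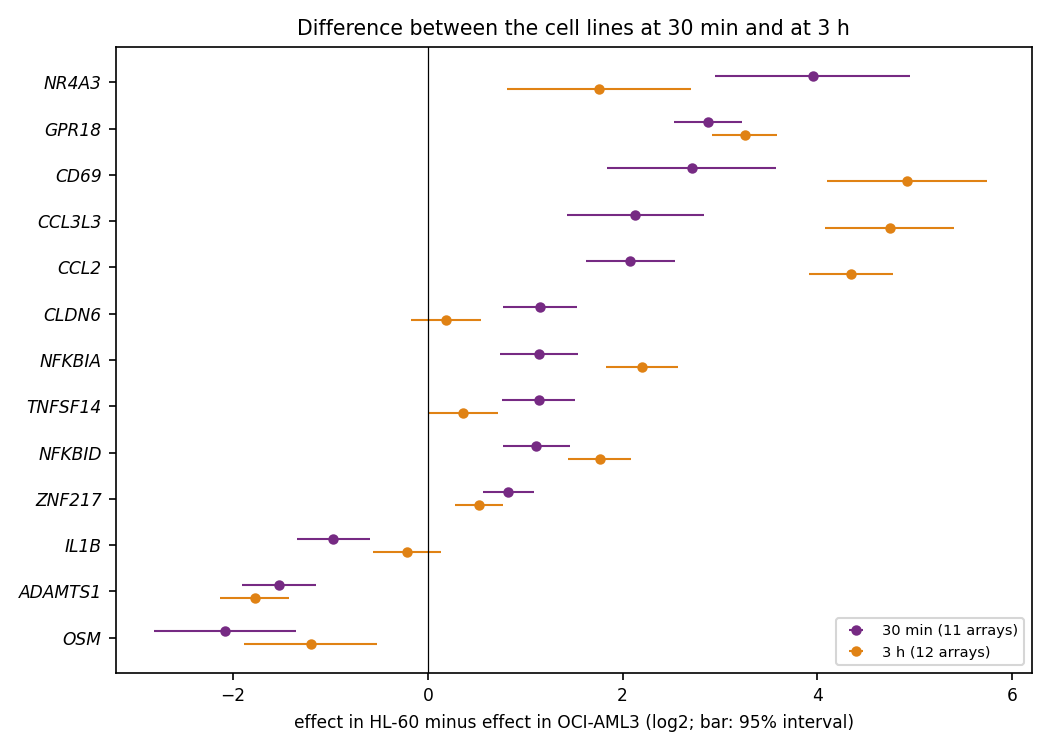
Difference between the CIGB-300 effect in HL-60 and in OCI-AML3, in log2 units, at 30 min (purple, 11 arrays) and at 3 h (orange, 12 other arrays) for the 13 genes; points are estimates and bars are 95% intervals. All 13 keep their sign, and CD69, CCL3L3, CCL2 and NFKBIA lie farther from 0 at 3 h, at 4.92, 4.74, 4.34 and 2.20.

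The lines were checked against markers. Neutrophil granule genes, 7 measured, had a median of 12.44 in untreated HL-60 and 11.65 in untreated OCI-AML3 cells. Their lowest gene mean was 8.97 and 5.41. The HOX and MEIS1 genes typical of leukemia with mutant NPM1 had medians of 4.58 and 7.14. The higher of 2 measured B cell genes had means of 10.78 and 5.27. The median of the HL-60 arrays was 5.38 to 5.44 and that of the OCI-AML3 arrays 5.52 to 5.55, the SD within groups had a median of 0.12 to 0.16, and the median standard error of the difference was 0.26. The number of arrays limits the precision, and p-values measure the spread between samples that the series calls biological replicates.

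One group of genes moved with single arrays. By the untreated 3 h arrays, 21 probe sets were at least 6 log2 units higher in HL-60 than in OCI-AML3. Their mean in OCI-AML3 at 30 min was 3.67 and 3.53 in the untreated arrays and 3.40, 4.40 and 4.16 in the treated replicates 1, 2 and 3. MPO, myeloperoxidase, which was at 12.99 to 13.14 in all HL-60 arrays, was at 5.29 and 5.53 and then 5.75, 7.53 and 6.78 in OCI-AML3, and PRG2, an eosinophil granule protein, at 4.61 and 4.66 and then 4.64, 7.38 and 6.15. Treated replicates 2 and 3 thus held more MPO and PRG2 than the other OCI-AML3 arrays. Both genes were named after their values were seen. Their differences of -1.31 (unadjusted p = 0.0219 from limma) and -1.53 were not called. Of the 21 probe sets, 16 had an effect above 0 in OCI-AML3. DEFA4, a neutrophil defensin, which was called at -1.70 ± 0.41, was at 9.30 to 9.45 in HL-60, at 2.96 and 2.53 in untreated and at 4.15, 4.82 and 4.25 in treated OCI-AML3 cells. CD79A, a B cell gene also named after its values were seen, was at 10.69 to 10.85 in HL-60. In OCI-AML3 it was at 5.04 and 5.51 in untreated and at 6.015, 6.27 and 5.755 in treated cells, and it was called at -0.78 ± 0.25. For DEFA4 and CD79A, treated replicate 1 was above both untreated OCI-AML3 arrays too. The part of these shifts in the calls was not tested, and they bear on genes that HL-60 has and OCI-AML3 lacks. In the opposite case, 40 probe sets far higher in OCI-AML3 had means of 3.85 to 3.95 in untreated and 3.73 to 4.19 in treated HL-60 arrays.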

How the data were processed

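RNA of the 23 samples was measured on Clariom S HT arrays. The authors ran RMA (convolution background, quantile normalisation across arrays, robust summary of probe sets), and the values they deposited are log2; tool versions are not given in the sources used here. Quantile normalisation sets the arrays to 1 distribution, so changes shared by most transcripts cannot be seen. Of 27189 features 5741 controls were left out. Of the 21448 tested probe sets 17709 have 1 symbol in the platform annotation, and the 3739 others stay unnamed.

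limma 3.58.1 (R 4.3.3, default eBayes) fitted 1 mean per group to all 23 arrays (8 groups), and the difference between lines is a contrast of 4 means, called at an unadjusted p under 0.01 and 1.5-fold, with Benjamini-Hochberg adjustment over all probe sets. Named by rule are all genes with an adjusted p under 0.05 and up to 12 called genes each way whose arrays do not overlap in the line with the larger effect. Up to 4 called members per list were also named, and up to 10 genes called in both lines but not for the difference. NFKBIZ, IL10, MPO, PRG2 and CD79A were named after their values were seen, and some other list members are given beside these. The members, lists and rules were chosen with earlier results of these data known. The calculation was tested on simulated data. Alternatives changed the arrays, the variance model, weights, a replicate block, normalisation, a filter on dim probe sets and thresholds. Detection above background was not tested. Python 3.11.15, pandas 2.3.3 and matplotlib 3.10.9 read promoters and drew figures.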

Additional observations from a re-analysis of the deposited data

Results flagged for a closer look

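For 16 probe sets the effects in the lines differed, by a test of the difference itself (limma, adjusted p under 0.05), and their log2 differences (HL-60 minus OCI-AML3) were as follows. More positive in HL-60 were TC1700007626.hg.1 at 4.68, NR4A3 at 3.95, TC1700007620.hg.1 at 3.79, GPR18 at 2.88, CD69 at 2.71, CCL3L3 at 2.13, CCL2 at 2.08, CLDN6 at 1.15, NFKBIA at 1.14, TNFSF14 at 1.14, NFKBID at 1.11 and ZNF217 at 0.82. More positive in OCI-AML3 were IL1B at -0.97, TC0100011253.hg.1 at -1.11, ADAMTS1 at -1.53 and OSM at -2.08. No group holds more than 3 arrays, so the test for 1 array apart from the rest of its group, which needs at least 4, was not run. Of these 16, TC0100011253.hg.1 had the opposite sign at 3 h, at 1.70.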

How the results depend on the processing

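Of the 51 named probe sets called for the difference at 30 min, 28 kept the call under every alternative in which they were tested, 23 lost it under at least 1, and none changed sign; of the 10 named that were not called, 5 did (IER3, FOSB, HBEGF, ZFP36 and RGS2). All 16 with an adjusted p under 0.05 kept the call, and 5 (NR4A3, GPR18, CCL2, TC1700007626.hg.1 and TC1700007620.hg.1) kept the adjusted p under all alternatives.

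The main counts of 299 for the line difference, 188 in HL-60, 230 in OCI-AML3 and 639 for the line difference at 3 h became 16, 59, 39 and 247 with an adjusted p under 0.05 and 1.5-fold, 16, 74, 39 and 266 with the adjusted p alone, 112, 44, 45 and 247 at 2-fold, and 137, 88, 85 and 412 without probe sets under the median level. The count at an adjusted p under 0.05 went from 16 to 33 without probe sets under the median level, to 25 with trend and robust settings, to 7 with a replicate block within line and time and to 7 without replicate 1 of every group. Leaving out arrays gave 246 to 384, 183 to 262, 217 to 272 and 637 to 718 calls, and 7 to 19 at an adjusted p under 0.05; where 1 array was left in a group it was assumed to vary like the others. Centring arrays on the median gave 411 higher and 247 lower at 3 h against 328 and 311.

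The replicate numbers do not pair the samples: after group means were removed, the 15 pairs of 30 min arrays with the same number correlated at -0.06 to 0.07. With the replicate number as a block, 316, 194, 248 and 658 probe sets were called and 15 had an adjusted p under 0.05.

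Untreated OCI-AML3 cells have 2 arrays at 30 min. Of the 299 calls, 173 lie under the median level.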
